A study of Mus musculus with 27 samples.

Results

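The 42 genes described here act in mitosis, the step in which a cell divides its copied chromosomes between daughter cells. They were chosen by name, as cyclins and entry kinases, kinetochore and checkpoint proteins, chromosomal passengers, chromosome proteins, spindle motors and cytokinesis proteins, and their values in these samples were not part of the rule, although earlier results of these data were known when the set was drawn up. Of the 42 genes, 41 were measured, among 18193 genes in all; Ccnb1 could not be paired with a probe set of its own and was not analysed here. The RNA came from the lungs of female mice of the inbred strains C57L/J, CBA/J and C57BL/6J, 10 to 12 weeks old when irradiated. The whole thorax received 0 Gy (sham), 12.5 Gy or 15 Gy of X-rays in 1 exposure, with head, abdomen and forelimbs shielded, and the right upper lobe was taken 24 h later. There were 3 mice for every strain at every dose, or 27 in all, with 1 Affymetrix array per mouse and no pooling; the separate animals make the replicates biological. C57L/J is the strain that the study calls radiation sensitive and C57BL/6J the one it calls radiation resistant. The study asked which early changes in lung gene expression go with the strains' known difference in radiation injury.

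Mitosis genes are transcribed in waves: most are silent in resting cells, rise in the G2 phase and fall again after division, so in an adult tissue they report on its few dividing cells. Many are held off by the DREAM complex, which binds a short promoter element called CHR, while the factor NF-Y binds CCAAT boxes close to the same start sites and activates them. After DNA damage, p53 induces p21, the product of Cdkn1a, and the genes that rely on these elements are repressed as cells arrest. The healthy adult lung divides slowly, and lymphocytes, endothelial cells and epithelial progenitors are among its dividing cells.

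Promoter sequence shows how often the letters of these elements occur in the set. RefSeq promoter windows on the GRCm38.p6 build, from 250 bases before to 50 after the start, were found for 36 of the 42 genes, in 38 windows. A CHR-type hexamer on either strand, TTTGAA in its usual form and TTCGAA in a less usual one, was present in 29 of the 38 windows, or 76.3%, against 19.2% of all 32851 windows. CCAAT on either strand was present in 28 of the 38 (73.7%), against 37.4% of all windows, and at least 2 copies in 19 of the 38 (50%), against 11.7%. Both kinds were found together in 25 of the 38 (65.8%), against 7.52% of all windows, and a further variant, TTTAAA, in 9 of the 38 (23.7%) against 13.2%. Matches overlapped each other in 2 of the 38 windows and in 0.639% of all windows. The 250 bases before the start are given below for the 6 genes with a match that had the lowest p in 12.5 against 0 Gy, because they show how the elements are spaced. These are Ccnb2 (chr9:70421555-70421804, minus strand), Top2a (chr11:99024190-99024439, minus strand), Mki67 (chr7:135716380-135716629, minus strand), Cdc20 (chr4:118437344-118437593, minus strand), Ube2c (chr2:164769679-164769928, plus strand) and Cdca3 (chr6:124829926-124830175, plus strand). Each runs 5′ to 3′ on the strand of the gene, and capitals mark both CHR-type hexamers and the CCAAT boxes on either strand.
Ccnb2: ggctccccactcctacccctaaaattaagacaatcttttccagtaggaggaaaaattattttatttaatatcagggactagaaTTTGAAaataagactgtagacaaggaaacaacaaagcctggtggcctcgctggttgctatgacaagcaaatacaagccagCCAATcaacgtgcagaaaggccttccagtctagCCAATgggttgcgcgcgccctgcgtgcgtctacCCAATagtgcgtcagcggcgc
Top2a: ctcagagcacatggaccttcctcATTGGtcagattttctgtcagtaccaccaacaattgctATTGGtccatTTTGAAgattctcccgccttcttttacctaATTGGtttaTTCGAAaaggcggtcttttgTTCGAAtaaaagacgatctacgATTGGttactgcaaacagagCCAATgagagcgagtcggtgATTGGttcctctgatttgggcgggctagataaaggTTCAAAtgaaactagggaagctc
Mki67: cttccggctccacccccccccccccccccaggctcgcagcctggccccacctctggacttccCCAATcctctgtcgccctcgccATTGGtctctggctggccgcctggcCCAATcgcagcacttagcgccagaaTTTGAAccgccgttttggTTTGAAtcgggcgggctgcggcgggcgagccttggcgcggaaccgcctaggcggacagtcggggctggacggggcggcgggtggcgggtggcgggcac
Cdc20: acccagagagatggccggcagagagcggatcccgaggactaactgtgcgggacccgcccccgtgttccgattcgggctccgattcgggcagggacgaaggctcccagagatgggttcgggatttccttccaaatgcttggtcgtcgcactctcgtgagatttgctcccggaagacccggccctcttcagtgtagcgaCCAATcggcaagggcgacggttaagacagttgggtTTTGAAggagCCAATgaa
Ube2c: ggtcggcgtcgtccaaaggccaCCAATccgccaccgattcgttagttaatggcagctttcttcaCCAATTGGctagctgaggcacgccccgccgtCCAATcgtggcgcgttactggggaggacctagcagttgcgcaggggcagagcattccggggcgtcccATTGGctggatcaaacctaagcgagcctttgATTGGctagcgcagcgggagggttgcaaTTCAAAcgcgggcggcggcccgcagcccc
Cdca3: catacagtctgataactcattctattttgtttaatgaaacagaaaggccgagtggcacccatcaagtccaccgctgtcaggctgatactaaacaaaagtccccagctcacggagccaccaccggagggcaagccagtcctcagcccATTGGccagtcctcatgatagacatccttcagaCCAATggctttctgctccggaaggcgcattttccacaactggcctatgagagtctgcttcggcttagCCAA
Positions count from the start, with negative ones before it, and give the leftmost base. In Ccnb2 the CCAAT boxes lay at -87, -54 and -21, and in Cdc20 a TTTGAA at -18 lay between CCAAT boxes at -53 and -8. Mki67 held TTTGAA at -116 and -98, downstream of 3 CCAAT boxes. Top2a held 6 CCAAT boxes and 4 CHR-type hexamers, and in Ube2c a forward and a reverse CCAAT overlapped. The TTTGAA of Cdca3 lay at base 31 after the start and a further one of Ccnb2 at base 5, outside the stretch shown, and the last CCAAT of Cdca3 ran 1 base past it. Nusap1, Ncaph, Nuf2 and Mad2l1 held none of these motifs in their windows and Birc5 only TTTAAA, although all of them passed the tests below, whereas Ect2 and Hmmr, which did not pass on their brightest probe set, held several. A match is a description of letters and was not tested as a binding site.

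Levels are log2 intensities throughout and changes are differences between them, so a difference of 1 is a doubling of intensity, and levels are not compared between genes because probe sets differ in brightness. The arrays carried a strong irradiation response: Cdkn1a lay between 9.68 and 10.35 on the 9 sham arrays and between 12.73 and 13.59 on the 18 irradiated ones. Surfactant and other lung epithelium markers were high on every array (mean of 5 markers 14.21 to 14.73). On 9 arrays the mean of 10 skeletal muscle markers stood 2.07 to 8.20 above the median array, so that transcripts of tissue other than lung were present: 2 of the CBA/J shams, 2 each of the C57BL/6J 12.5 Gy, C57BL/6J 15 Gy and CBA/J 12.5 Gy arrays, and replicate 3 of C57L/J at 15 Gy. Thyroglobulin stood at 13.46 or above on 3 of them. That last array carried it too (14.30), with the lymph node venule gene Glycam1 (12.38) and thymocyte markers (mean of 8 markers 8.49, against 4.81 and 4.92 on the other arrays of its group). It had the highest value of its group for 28 of the 41 mitosis genes, with a mean of 6.71 over them against 6.10 and 6.24. Several results that rest on it are therefore given with and without it, and differences in response between strains only with it.

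**Figure D1:**
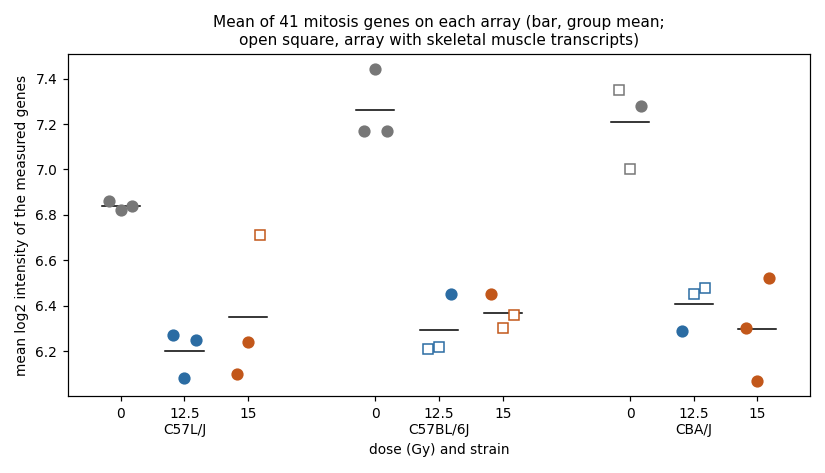
The vertical axis is the mean log2 intensity of the 41 measured mitosis genes on 1 array; the horizontal axis gives dose within each strain, bars are group means, and open squares are arrays with skeletal muscle transcripts. All 18 irradiated arrays lie below the lowest sham array of their own strain, and the C57L/J array at 6.71 is the irradiated array nearest to its shams.

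At 12.5 Gy, 23 of the 41 mitosis genes fell against sham over the 3 strains, 1 rose and 17 did not pass the test (limma, adjusted p under 0.05). Over all genes 5.86% were called lower and 3.17% higher. The median difference of the 41 genes was -0.85, against -0.01 for all genes, and 36 of the 41 lay below zero. At 15 Gy, 27 of the 41 fell and 1 rose, against 6.94% of all genes called lower and 4.83% called higher, with a median of -0.83 against -0.01. Both doses were set against the same sham arrays, so the counts at 12.5 and 15 Gy are not independent. Median-centring each array gave 21 and 24 of the 41 genes lower and moved the split over all genes, from 1067 lower and 577 higher to 623 and 832 at 12.5 Gy, and from 1263 and 879 to 813 and 814 at 15 Gy. In a whole lobe, fewer dividing cells and less RNA per cell cannot be told apart. Leaving out the 9 arrays with muscle transcripts took the count at 12.5 Gy to 14 of 41, with a median of -0.74. Over all genes 2.87% were then called lower. At 15 Gy the count became 20 of 41, with a median of -0.80, against 4.18% of all genes called lower. All of these 14 and 20 genes were among those called with every array.

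**Figure D2:**
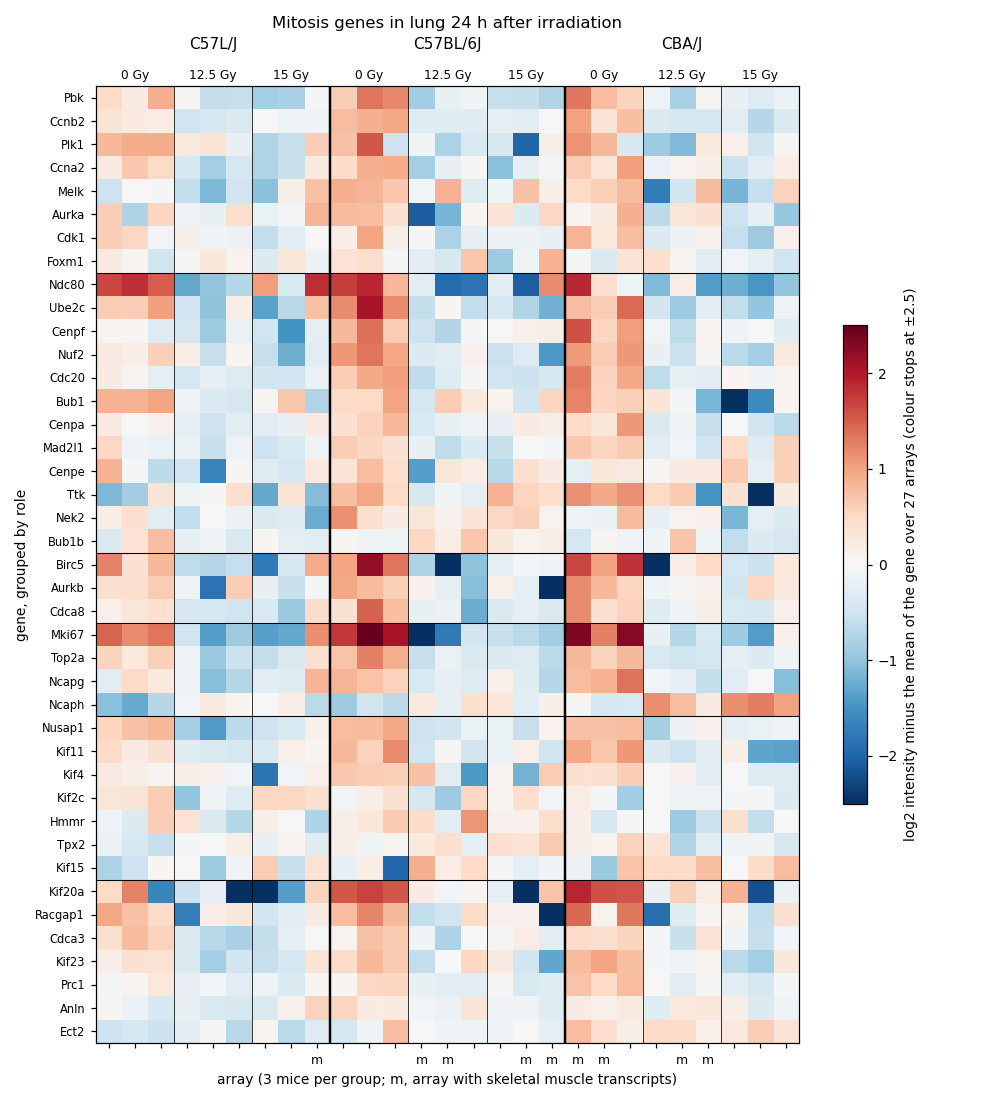
Rows are the 41 mitosis genes grouped by role, columns the 27 arrays by strain and dose, and colour is log2 intensity minus the gene's mean over all arrays, from blue (lower) to red (higher). The sham columns are mostly red and the irradiated columns mostly pale or blue; Ncaph runs the other way, and the third C57L/J array at 15 Gy resembles a sham array for Mki67 and Ndc80.

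Chromosome proteins held the largest change of the set. Mki67, which encodes the proliferation antigen Ki-67 of the mitotic chromosome surface, ran from 8.13 to 9.51 (median 8.73) on sham arrays, from 2.77 to 6.77 (median 6.24) at 12.5 Gy and from 5.55 to 8.11 (median 6.09) at 15 Gy. No irradiated array reached the lowest sham array, although C57L/J replicate 3 at 15 Gy, at 8.11, came close to it. Mki67 fell by 2.97 ± 0.42 (SE) at 12.5 Gy, or 7.82-fold, with an adjusted p of 2.99e-05, and by 2.45 ± 0.42 at 15 Gy (adjusted p = 0.000331). Without that array the difference at 15 Gy was -2.70 ± 0.392. Top2a, the topoisomerase that untangles sister chromatids, ran from 8.16 to 9.15 (median 8.61) in sham lungs, from 6.95 to 7.79 (median 7.45) at 12.5 Gy and from 7.24 to 8.28 (median 7.54) at 15 Gy. It fell by 1.17 ± 0.132 (adjusted p = 1.34e-06) and 1.01 ± 0.132 (adjusted p = 1.31e-05), with no overlap at 12.5 Gy and overlap at 15 Gy only through C57L/J replicate 3. This holds for the brightest of its 3 probe sets; the other two gave -0.26 and 0.02 at 12.5 Gy and were not called. Ncapg, a subunit of the condensin complex that compacts chromosomes, ran from 5.04 to 6.67 in sham lungs, from 4.25 to 5.24 at 12.5 Gy and from 4.25 to 6.16 at 15 Gy, and fell by 1.03 ± 0.208 (adjusted p = 0.00179) and 0.84 ± 0.208 (adjusted p = 0.00916).

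Ncaph, another condensin subunit, was the only one of the 41 genes that rose. On sham arrays it read 8.03, 7.81 and 8.35 in C57L/J lungs, 8.16, 8.58 and 8.42 in C57BL/6J, and 9.09, 8.63 and 8.68 in CBA/J. At 12.5 Gy it read 9.00, 9.30 and 9.12 in C57L/J lungs, 9.31, 8.83 and 9.49 in C57BL/6J, and 10.23, 9.84 and 9.27 in CBA/J. At 15 Gy it read 9.06, 9.23 and 8.40 in C57L/J lungs, 9.37, 8.79 and 9.23 in C57BL/6J, and 10.23, 10.34 and 10.08 in CBA/J. Every irradiated array was above every sham array of its own strain, although the groups overlapped over all strains. The rise was 0.96 ± 0.149 at 12.5 Gy (adjusted p = 9.53e-05) and 1.00 ± 0.149 at 15 Gy (adjusted p = 6.82e-05). Its second probe set rose too, by 0.93 ± 0.166 at 12.5 Gy (adjusted p = 0.000806).

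Among the cyclins and entry kinases, 5 of 8 genes fell at each dose. Ccnb2, a B-type cyclin that activates Cdk1, ran from 7.04 to 7.86 (median 7.60) in sham lungs, from 6.35 to 6.56 (median 6.49) at 12.5 Gy and from 6.14 to 6.85 (median 6.63) at 15 Gy. The irradiated arrays all lay below the sham arrays. Ccnb2 fell by 0.98 ± 0.104 (adjusted p = 4.55e-07) and 0.83 ± 0.104 (adjusted p = 6.72e-06). Pbk, a mitotic kinase, ran from 7.07 to 8.20 in sham lungs, from 5.99 to 6.94 at 12.5 Gy and from 6.01 to 6.83 at 15 Gy, and fell by 1.17 ± 0.166 (adjusted p = 2.94e-05) and 1.30 ± 0.166 (adjusted p = 8.64e-06). Ccna2, the cyclin of S phase and mitotic entry, ran from 7.33 to 8.15 in sham lungs, from 6.24 to 7.25 at 12.5 Gy and from 6.08 to 7.32 at 15 Gy. It fell by 0.93 ± 0.163 (adjusted p = 0.000441) and 0.97 ± 0.163 (adjusted p = 0.000284), again without overlap at either dose. Cdk1, the kinase that drives entry into mitosis, and Plk1, a polo kinase, fell with groups that overlapped: Cdk1 by 0.64 and 0.77 (adjusted p = 0.0101 and 0.00175), and Plk1 by 0.95 and 1.03 (adjusted p = 0.0486 and 0.0261). The call of Plk1 was lost at 12.5 Gy when any 1 of 20 of the 27 arrays was left out, and at 15 Gy for 4 of them. Foxm1, a transcription factor of G2 and mitosis genes, did not pass at either dose on the brightest of its 4 probe sets (0.02 ± 0.19 and -0.18 ± 0.19). There its sham arrays (6.43 to 7.36) lay within the range of the irradiated ones (6.03 to 7.80). Its dimmer probe sets gave -0.805, -0.209 and -0.613 at 12.5 Gy and -1.012, -0.822 and -0.757 at 15 Gy, and were not called. Aurka, a spindle pole kinase, and Melk, a mitotic kinase, gave -0.73 and -0.77 at 12.5 Gy, with adjusted p-values of 0.154 and 0.112.

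In the kinetochore and checkpoint group, 7 of 12 genes fell at 12.5 Gy and 9 of 12 at 15 Gy. Ube2c, which supplies ubiquitin to the anaphase-promoting complex, ran from 7.45 to 8.89 (median 7.86) in sham lungs, from 5.81 to 6.99 (median 6.35) at 12.5 Gy and from 5.48 to 7.56 (median 6.14) at 15 Gy, and fell by 1.52 ± 0.239 (adjusted p = 0.000117) and 1.66 ± 0.239 (adjusted p = 4.7e-05). Only C57L/J replicate 3, at 7.56, reached the sham range at 15 Gy. Cdc20, the activator of that complex, ran from 8.28 to 9.79 in sham lungs, from 7.87 to 8.53 at 12.5 Gy and from 7.97 to 8.58 at 15 Gy. It fell by 0.93 ± 0.143 (adjusted p = 8.62e-05) and 0.89 ± 0.143 (adjusted p = 0.000177), and only the C57L/J shams overlapped the irradiated arrays. Cenpa, the histone variant that marks centromeres, ran from 7.20 to 8.29 in sham lungs and from 6.63 to 7.09 at 12.5 Gy, and fell by 0.75 ± 0.129 (adjusted p = 0.000341); the other two of its 3 probe sets gave -0.20 and 0.44 and were not called. At 15 Gy it ran from 6.52 to 7.41 and fell by 0.58 ± 0.129 (adjusted p = 0.00379). Ndc80 and Nuf2, partners in the complex that ties kinetochores to microtubules, fell by 2.33 ± 0.419 and 0.97 ± 0.189 at 12.5 Gy (adjusted p = 0.000554 and 0.0013), and by 1.54 and 1.42 at 15 Gy (adjusted p = 0.0163 and 1.58e-05). All 9 of the 12.5 Gy values of Ndc80, from 1.86 to 3.98, lay below an intensity of 32, in the dimmest 14.0% to 19.3% of an array, so the size of its change is less certain than its direction. Cenpf, a kinetochore protein, and Mad2l1, the spindle checkpoint protein Mad2, fell at both doses, by 1.02 and 0.72 at 12.5 Gy (adjusted p = 0.000742 and 0.000819). Bub1, a checkpoint kinase, and Nek2, a centrosome kinase, passed only at 15 Gy (-1.42 ± 0.425, adjusted p = 0.0288, and -0.56 ± 0.18, adjusted p = 0.0447), and no gene differed between the doses. Nek2 lost its call when any 1 of 13 of the 27 arrays was left out, C57L/J replicate 3 among them (adjusted p = 0.0892), and Bub1 without CBA/J sham replicate 1 or CBA/J 15 Gy replicate 2. A second probe set of Bub1 gave -0.07 at 12.5 Gy and -0.11 at 15 Gy and was not called. The checkpoint proteins Bub1b and Ttk and the motor Cenpe did not pass at either dose on their brightest probe set. Bub1b gave 0.12 ± 0.158 and -0.15 ± 0.158 on that probe set. Its dimmer probe sets gave -0.788 and -0.897 at 12.5 Gy and -0.275 and -0.484 at 15 Gy, and were not called. The second probe set of Cenpe fell by 0.91 and 1.03 (adjusted p = 0.00465 and 0.00142).

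Of the 3 chromosomal passengers, which correct faulty attachments and then act in cytokinesis, Birc5 (survivin) had the largest change. It ran from 5.99 to 7.81 (median 6.85) in sham lungs, from 2.54 to 6.10 (median 4.90) at 12.5 Gy and from 3.84 to 6.54 (median 5.37) at 15 Gy, with overlap at both doses. Birc5 fell by 2.28 ± 0.419 (adjusted p = 0.00071) and 1.53 ± 0.419 (adjusted p = 0.0177). At 12.5 Gy 6 of its 9 values lay under an intensity of 32, so the size of this change is uncertain too. Cdca8 (borealin) ran from 7.14 to 8.49 in sham lungs, from 5.78 to 7.15 at 12.5 Gy and from 6.08 to 7.47 at 15 Gy, and fell by 0.99 ± 0.185 (adjusted p = 0.000862) and 0.90 ± 0.185 (adjusted p = 0.00181). Aurkb, the kinase of the complex, ran from 5.66 to 6.44 in sham lungs, from 3.40 to 5.87 at 12.5 Gy and from 2.06 to 5.76 at 15 Gy. It passed at 15 Gy (-1.13 ± 0.349, adjusted p = 0.0349) and not at 12.5 Gy (-0.99 ± 0.349, adjusted p = 0.0816), and its call was lost when any 1 of 6 of the 27 arrays was left out.

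**Figure D3:**
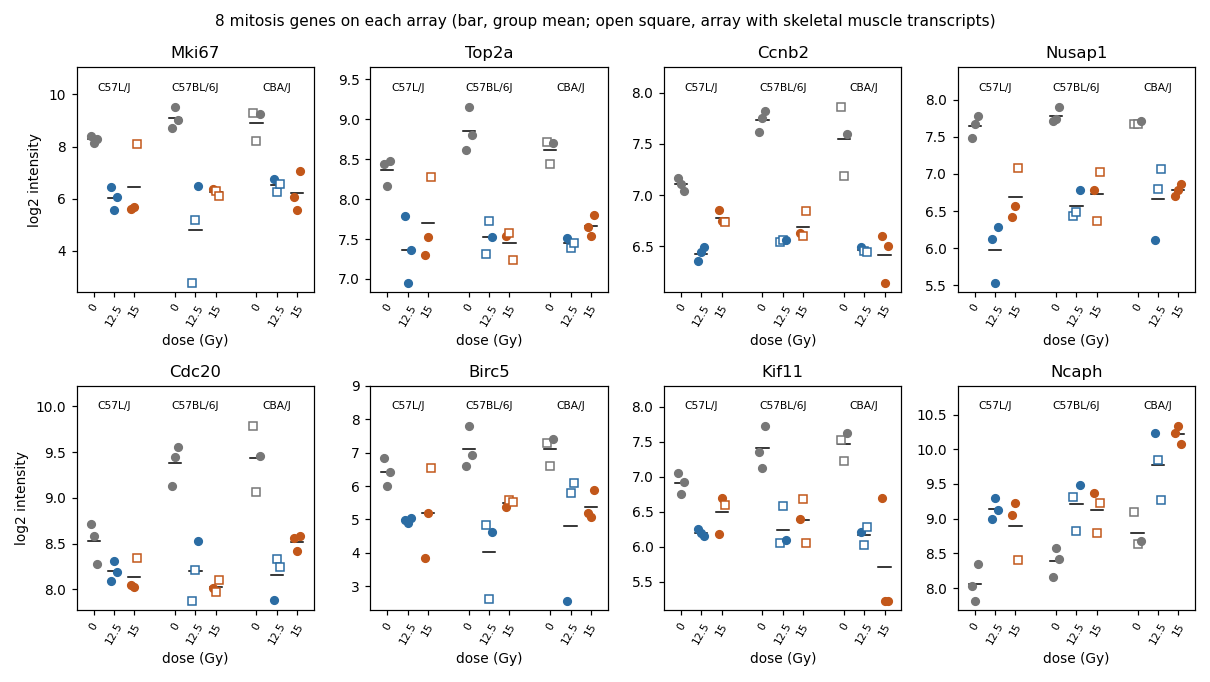
Each panel shows 1 gene, with log2 intensity on the vertical axis and dose within each strain on the horizontal axis; points are arrays, bars group means, and open squares arrays with skeletal muscle transcripts. Ccnb2 and Nusap1 show irradiated points below all sham points, Mki67 and Birc5 show some 12.5 Gy arrays well below the rest (2.77 for Mki67, 2.54 for Birc5), and Ncaph rises in each strain.

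Of 7 spindle motors and spindle proteins, Nusap1 and Kif11 fell and the other 5 did not pass at either dose on their brightest probe set. Nusap1, which bundles microtubules near chromosomes, ran from 7.49 to 7.90 (median 7.71) in sham lungs, from 5.53 to 7.06 (median 6.43) at 12.5 Gy and from 6.37 to 7.08 (median 6.78) at 15 Gy. All 18 irradiated arrays lay below all 9 sham arrays. It fell by 1.31 ± 0.135 (adjusted p = 3.14e-07, the lowest of the 41 at that dose) and 0.98 ± 0.135 (adjusted p = 2.78e-05), though its dimmer second probe set gave 0.27 ± 0.429 at 12.5 Gy and was not called. Kif11, the motor that pushes spindle poles apart, ran from 6.75 to 7.73 in sham lungs, from 6.03 to 6.58 at 12.5 Gy and from 5.22 to 6.70 at 15 Gy. It fell by 1.05 ± 0.188 (adjusted p = 0.00051) and 1.06 ± 0.188 (adjusted p = 0.000443), without overlap. This holds for the brightest of its 3 probe sets. The second gave -0.12 and -0.05 and was not called. The third fell by 0.47 at 12.5 Gy (adjusted p = 0.047) and gave -0.29 at 15 Gy, where it was not called. Kif15, a motor that can stand in for Kif11, lay above zero at both doses without passing, at 0.65 ± 0.266 (adjusted p = 0.142) and 0.54 ± 0.266 (adjusted p = 0.206). Tpx2, a spindle assembly factor, gave 0.00 ± 0.15 at 12.5 Gy, with a 95% interval from -0.31 to 0.31, but this is its brightest probe set of 4: another fell by 0.84 at 12.5 Gy (adjusted p = 0.0152) and a further one by 0.57 at 15 Gy (adjusted p = 0.0122). Kif2c, Kif4 and Hmmr gave -0.37, -0.52 and -0.21 at 12.5 Gy, with adjusted p-values of 0.241, 0.252 and 0.591. The second probe set of Kif2c, a microtubule depolymerase, fell by 0.82 and 0.77 (adjusted p = 0.00109 and 0.00195), and that of Hmmr, a spindle protein, by 0.80 and 0.74 (adjusted p = 0.00247 and 0.00416).

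Of 7 cytokinesis genes, 4 fell at 12.5 Gy and 5 at 15 Gy. Cdca3, a trigger of mitotic entry grouped here, ran from 7.07 to 7.77 in sham lungs, from 6.17 to 7.32 at 12.5 Gy and from 6.38 to 7.17 at 15 Gy, and fell by 0.85 ± 0.144 (adjusted p = 0.000276) and 0.71 ± 0.144 (adjusted p = 0.0017). Its dimmer probe sets gave 0.45 and 0.01 at 12.5 Gy and were not called. Prc1, which bundles the central spindle, ran from 6.97 to 7.78 in sham lungs, from 6.72 to 7.04 at 12.5 Gy and from 6.60 to 7.07 at 15 Gy, and fell by 0.54 ± 0.1 (adjusted p = 0.000701) and 0.57 ± 0.1 (adjusted p = 0.000386). Kif23, a motor of the same midzone, ran from 6.85 to 7.68 in sham lungs, from 5.84 to 7.21 at 12.5 Gy and from 5.40 to 7.03 at 15 Gy, and fell by 0.81 ± 0.197 (adjusted p = 0.00954) and 0.99 ± 0.197 (adjusted p = 0.00149). The dimmer probe sets of Kif23 gave -0.31 and -0.20 at 12.5 Gy and 0.01 and -0.67 at 15 Gy, and were not called. Racgap1, the partner of Kif23, fell by 1.32 ± 0.407 (adjusted p = 0.0423) and 1.29 ± 0.407 (adjusted p = 0.0385), calls that were lost when any 1 of 13 and of 8 of the 27 arrays was left out. This is the brightest of its 3 probe sets. The second, tested separately, fell by 0.81 ± 0.141 (adjusted p = 0.00058) and 0.85 ± 0.141 (adjusted p = 0.000341). The third, at a mean of 0.27, gave 0.20 and -0.14 and was not called. Kif20a, another midzone motor, gave -1.44 ± 0.501 at 12.5 Gy (adjusted p = 0.0751; 0.044 without C57L/J replicate 3 at 15 Gy, which narrowed the spread) and fell by 1.89 ± 0.501 at 15 Gy (adjusted p = 0.0139). Of its values, 8 of 9 at 12.5 Gy and 6 of 9 at 15 Gy lay under an intensity of 32. Ect2 and Anln, which direct the contractile ring, gave -0.01 ± 0.137 and -0.19 ± 0.131 at 12.5 Gy and did not pass.

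**Figure D4:**
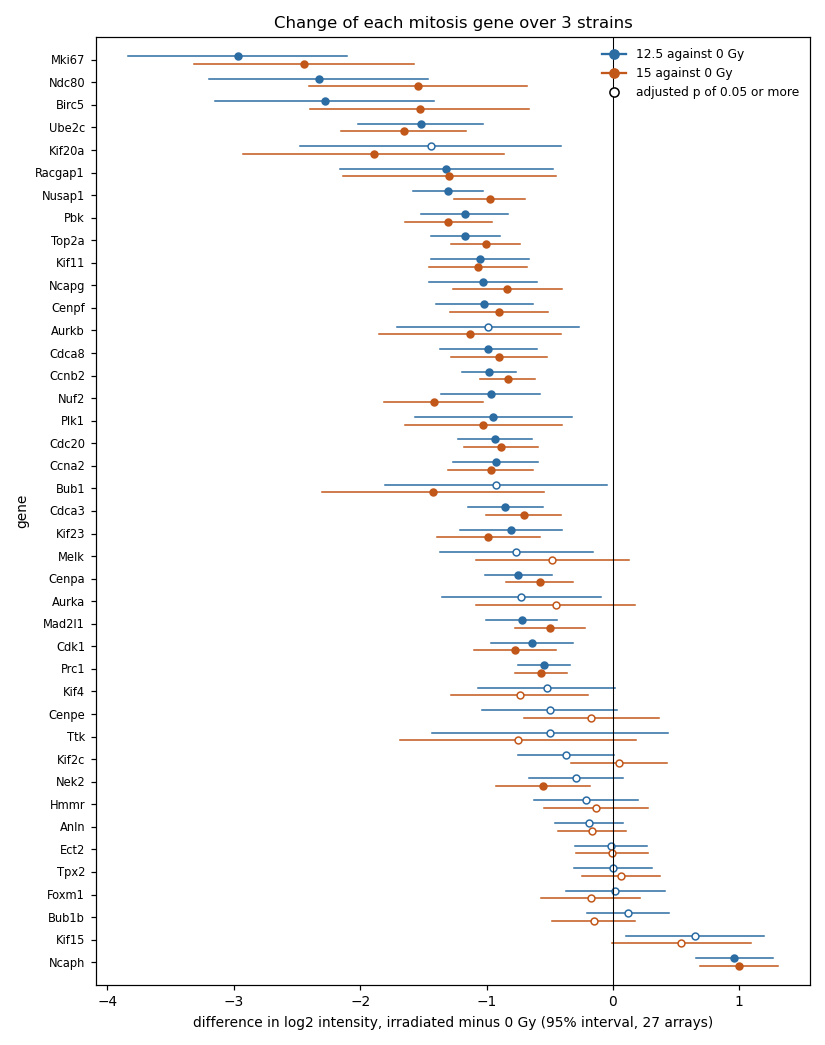
The horizontal axis is the difference in log2 intensity between irradiated and sham arrays over 3 strains, with 95% intervals from the fit to 27 arrays, for each of the 41 genes on the vertical axis; blue is 12.5 Gy, orange 15 Gy, and open points did not pass. Mki67, Ndc80 and Birc5 lie farthest left at 12.5 Gy, with wide intervals, Prc1 and Ccnb2 have narrow ones, and only Ncaph passes to the right of zero.

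No overlap between all irradiated and all sham arrays was seen for 9 genes at 12.5 Gy (Mki67, Top2a, Ccnb2, Pbk, Ccna2, Ube2c, Cenpa, Nusap1 and Kif11), against 1.24% of all genes, and for 6 at 15 Gy (Mki67, Ccnb2, Pbk, Ccna2, Nusap1 and Kif11), against 0.797%. Of the 41 genes 26 had more than 1 probe set, and 10 of their 47 dimmer probe sets fell at 12.5 Gy, 1 rose and 36 did not pass. When each probe set was tested separately, a choice added after the data were seen, at least 1 probe set fell for 26 of the 41 genes at 12.5 Gy. At 15 Gy this held for 30, and no gene had probe sets called in both directions. In the same test the brightest probe set fell for 21 and 26 genes. A gene with more probe sets has more chances of a call, and the matching share over all genes is not given here.

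The doses did not separate. Between 15 and 12.5 Gy, 0 of the 41 genes passed in limma, and 0% of all genes were called in either direction. At an unadjusted p under 0.05 the count was 3 of 41, with 791 genes over the whole array. In limma the 3 were Nusap1 (0.33 higher at 15 Gy, unadjusted p = 0.0226), Nuf2 (0.45 lower, unadjusted p = 0.0253) and Kif2c (0.42 higher, unadjusted p = 0.0301). The random variance t test, run as an alternative, also called 0. The median of the 41 differences was 0.02. For Mki67 the difference between doses was 0.52 with a wide interval, from -0.34 to 1.39, whereas for Prc1 it was -0.03, from -0.23 to 0.18.

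Single strains were compared on 6 arrays each, and there a limma p under 0.01 without adjustment made a call. In C57BL/6J, 18 of the 41 genes fell at 12.5 Gy (2.67% of all genes lower, 0.978% higher) and 14 at 15 Gy (2.22% lower, 1.59% higher). In CBA/J, 15 fell at 12.5 Gy (2.34% lower, 0.94% higher) and 16 at 15 Gy (3.2% lower, 2.41% higher). In C57L/J, 13 fell at 12.5 Gy (2.85% lower, 1.68% higher) and 4 at 15 Gy (1.08% lower, 0.786% higher). Ncaph was the gene called higher, in C57L/J at 12.5 Gy and in CBA/J at 15 Gy. The low count of C57L/J at 15 Gy turned on 1 array: without replicate 3 it was 13, with 2.11% of all genes lower. Without any other array of that comparison it was 0 or 1. In CBA/J at 15 Gy the count was 10 without sham replicate 2 and 9 without sham replicate 3, 15 Gy replicate 1 or 15 Gy replicate 2. Apart from the 2.11%, shares of all genes are not given for these refits. Leaving out the arrays that carried muscle transcripts gave fewer calls in C57BL/6J at both doses and in CBA/J at 15 Gy. Each of these fits rests on a group of 1 remaining array, whose spread is assumed to be that of the other group. Their counts are therefore not given. CBA/J at 12.5 Gy then had 1 array in both groups and could not be fitted alone. On C57L/J replicate 3 at 15 Gy Mki67 was 8.11 against 5.59 and 5.67 in its group, and 8.42, 8.13 and 8.30 in C57L/J shams. Top2a was 8.28 there against 7.30 and 7.53, and Ube2c 7.56 against 5.48 and 6.14. Without it Mki67 differed by -2.65 ± 0.145 at 15 Gy in C57L/J, and with it by -1.82. The thymus, thyroid and lymph node transcripts on that array move with these values, and their part in them was not tested.

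Nusap1 was called lower in all 6 of the strain and dose comparisons, with differences from -1.67 to -0.91. Mki67, Top2a, Ccnb2 and Kif11 were called lower in 5 of 6, and 14 genes were called lower in 0 of 6. Among those 14 is Ncaph, which was called higher in 2 of 6. Mki67 in C57BL/6J read 8.73, 9.51 and 9.01 in sham lungs, 2.77, 5.18 and 6.49 at 12.5 Gy, and 6.39, 6.29 and 6.09 at 15 Gy. In CBA/J it read 9.29, 8.22 and 9.24, then 6.77, 6.24 and 6.57, then 6.06, 5.55 and 7.08. The irradiated arrays lay below the shams in both strains, and the C57BL/6J array at 2.77 stood apart from the others. After adjustment over all genes the within-strain counts were between 0 and 3, the 3 being C57L/J and C57BL/6J at 12.5 Gy.

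The strains were not shown to differ in their response. In the interaction test, which compares irradiated minus sham between strains over both doses, 0 of the 41 genes passed in limma for each of the 3 pairs, with 0% of all genes called, and the lowest adjusted p among the 41 was 0.579. At an unadjusted p under 0.05 there were 4 for C57L/J and C57BL/6J, 8 for C57L/J and CBA/J and 1 for C57BL/6J and CBA/J, against 4.63%, 4.7% and 5.88% of all genes. The random variance t test also called 0. The decline of Cdc20 was 0.91 smaller in C57L/J than in C57BL/6J (95% interval 0.43 to 1.38, unadjusted p = 0.000709) and 0.75 smaller than in CBA/J (0.27 to 1.22, unadjusted p = 0.00363). That of Ccnb2 was 0.60 smaller (0.26 to 0.95, unadjusted p = 0.00167) and 0.61 smaller (0.27 to 0.96, unadjusted p = 0.00141). These did not hold after adjustment. The difference in response was above zero, meaning a less negative response in C57L/J, for 33 of the 41 genes against C57BL/6J and for 28 against CBA/J. Over all genes 49% and 49.4% lay below zero. The test includes the irradiated C57L/J array with thyroid, lymph node and thymocyte transcripts, which was the highest of its group for 28 of the 41 genes. These counts are given only with that array, and its part in them was not tested.

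Sham levels were compared between strains in the same way, with 3 arrays a strain. C57L/J sham lungs read lower than C57BL/6J for 34 of the 41 genes and lower than CBA/J for 34, with array means over the 41 genes of 6.82 to 6.86 in C57L/J, 7.17 to 7.44 in C57BL/6J and up to 7.35 in CBA/J. At an unadjusted p under 0.01, 6 genes were called against C57BL/6J (2.6% of all genes) and 7 against CBA/J (6.06%), all of them lower in C57L/J. Melk, Cdc20 and Cenpf were called against both. Cdc20 read 8.72, 8.58 and 8.28 in C57L/J shams, 9.13, 9.45 and 9.56 in C57BL/6J shams and 9.79, 9.07 and 9.46 in CBA/J shams, with no overlap. Its irradiated arrays read 8.03 to 8.34 in C57L/J, 7.87 to 8.53 in C57BL/6J and 7.88 to 8.58 in CBA/J, so they overlapped. Ccnb2 read 7.17, 7.11 and 7.04 in C57L/J shams, against 7.62, 7.75 and 7.82 in C57BL/6J and 7.86, 7.19 and 7.60 in CBA/J. The count against C57BL/6J was 2 without C57L/J replicate 2. That against CBA/J was 2 without C57L/J replicate 1 or 2 or CBA/J replicate 1 or 3, and 4 without C57L/J replicate 3. Shares of all genes called without these arrays are not given here. With every array they were 2.6% and 6.06%, so counts as low as 2 of 41 were not shown to exceed them. None of the sham differences passed after adjustment over all genes (lowest adjusted p 0.194 and 0.0922). Between C57BL/6J and CBA/J shams 0 of the 41 were called by limma, against 4.45% of all genes, and 0 by the random variance t test. At an unadjusted p under 0.05 in limma the count was also 0 of 41, against 2069 of all 18193 genes. The same sham arrays enter the interaction test, so the sham differences and the smaller declines in C57L/J are not independent.

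Other genes of the cell cycle, from lists written beside the 42, moved in part the same way. Of 57 further mitosis genes, 16 fell and 3 rose at 12.5 Gy and 15 fell and 3 rose at 15 Gy, with medians of -0.34 and -0.35. The 3 that rose were Gtse1, a microtubule-binding protein of G2 (1.74 ± 0.171, adjusted p = 1.53e-07 at 12.5 Gy), Psrc1, a spindle protein (1.58 ± 0.162, adjusted p = 2.91e-07), and Ckap2, a spindle-associated protein (1.16 ± 0.194, adjusted p = 0.000254). Gtse1 ran from 4.95 to 6.68 on sham arrays and from 7.11 to 8.57 at 12.5 Gy, and the groups did not overlap. Among those that fell were Dlgap5, a spindle assembly protein (-1.41 ± 0.405, adjusted p = 0.0288), and Kif22, a chromosome motor (-1.13 ± 0.154, adjusted p = 1.92e-05). Of 28 DNA replication genes, 14 fell and 0 rose at 12.5 Gy and 12 fell and 2 rose at 15 Gy. Among those that fell at 12.5 Gy were Rrm2, the ribonucleotide reductase subunit (-1.44 ± 0.132, adjusted p = 5.65e-08), and Tk1, thymidine kinase (-2.26 ± 0.479, adjusted p = 0.0029). Of 17 subunits and regulators of the anaphase-promoting complex, 1 fell at 12.5 Gy, its inhibitor Fbxo5 (-0.95 ± 0.144, adjusted p = 7.05e-05), and at 15 Gy 1 fell and 3 rose, beside the fall of its partners Cdc20 and Ube2c. Of 13 DREAM and MuvB genes, 1 fell and 2 rose, each by less than 0.4, and of 17 G1 cyclins and their kinases and inhibitors 3 fell, Ccne1, Ccne2 and Cdk6. Of 15 checkpoint genes 5 rose at 12.5 Gy and 6 at 15 Gy, led by Cdkn1a (3.15 ± 0.119, adjusted p = 3.1e-15) and Ccng1, a cyclin induced by p53 (2.18 ± 0.079, adjusted p = 2.62e-15).

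Markers of other cells moved beside the mitosis genes. Of 9 B cell markers 8 fell at each dose, led by Cd79a of the B cell receptor (-2.34 ± 0.226, adjusted p = 1.08e-07 at 12.5 Gy). The mean of the 9 per array ran from 8.61 to 9.34 in sham lungs, from 6.49 to 7.86 at 12.5 Gy and from 7.32 to 8.46 at 15 Gy, so it did not overlap either. Of 8 T cell markers 5 and 4 fell, with array means of 7.49 to 8.56 in sham lungs, 7.08 to 7.38 at 12.5 Gy and 6.97 to 9.04 at 15 Gy, the last from C57L/J replicate 3. Of 8 endothelial markers 2 and 5 fell, led by Aplnr, the apelin receptor (-1.78 ± 0.149, adjusted p = 1.27e-08 at 12.5 Gy). The endothelial array means ran from 11.44 to 12.15, from 10.89 to 11.68 and from 10.57 to 11.68. Thymocyte markers fell for 2 of 8 at 12.5 Gy and for 0 at 15 Gy, and erythroblast markers for 1 and 2 of 6. None of 8 myeloid precursor, 7 squamous, 6 alveolar macrophage, 10 muscle and 5 lung epithelium markers passed at either dose in limma. The highest squamous array means were still 10.91 in sham lungs, 11.47 at 12.5 Gy and 12.40 at 15 Gy, against medians of 5.36, 5.83 and 5.45. Among shams Glycam1 reached 10.52 (median 2.02) and the thymocyte mean 7.18 (median 5.71). The part of such transcripts in the values of the mitosis genes was not tested. No marker of these lists was at the floor on every array of a dose. The part of lymphocyte or endothelial loss in the fall of the mitosis genes was not tested.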

How the data were processed

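Whole-lobe lung RNA was hybridised to Affymetrix Mouse Genome 430 2.0 arrays, 1 array per mouse, 27 in all. The deposited values are linear intensities, which the authors made with Affymetrix Expression Console 1.1, per the submitters' processing notes, and on every array their 2% trimmed mean is 500; how probes were summarised is not stated in the sources used here. Of 45101 probe sets, 34945 carried 1 gene symbol, 932 several and 9224 none, and the brightest probe set by mean over all arrays stood for each of 18193 genes. Intensities were floored at 1 (37 to 111 values per array) and taken as log2; array medians lay between 127.6 and 167.0, and the 27 arrays limit the precision. Groups came from the labels, and 0 columns belonged to no sample. Differences were fitted with limma 3.58.1 (lmFit and eBayes, R 4.3.3): over strains and for interactions on all 27 arrays with 9 group means, within a strain or between shams on the 6 arrays concerned, with Benjamini-Hochberg adjustment over all 18193 genes. All tests were two-sided. All measured members were named. The members and gene lists were chosen with earlier results of these data known. Promoter windows are RefSeq's on GRCm38.p6. Code was tested on simulated data. Alternatives were a random variance t test, another prior, call threshold, probe set rule, filter, floor and scaling, a replicate block, and leaving out arrays. Testing each probe set separately, and fitting CBA/J without its muscle arrays together with the rest, were added after seeing the data. Same-numbered arrays did not deviate together in every pair of any strain (correlations from -0.073 to 0.249), and the mice were not treated as paired by number. With 3 arrays a group these correlations cannot exclude a pairing. Python 3.11.15, pandas 2.3.3, numpy 2.4.6 and matplotlib 3.10.9 were also used.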

Additional observations from a re-analysis of the deposited data

How the results depend on the processing

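Over the 3 strains, 8 of the 24 called genes at 12.5 Gy (Birc5, Ccna2, Ccnb2, Mki67, Ncaph, Ndc80, Pbk and Ube2c) and 14 of the 28 at 15 Gy kept direction and call in every alternative that gave them a value. Birc5, Ccnb2, Mki67, Ndc80, Pbk and Ube2c, and Cdk1 and Nuf2 among the 14, have only 1 probe set. Another probe set rule could not change these genes. The filter on a mean log2 intensity of at least 6 gave no value for Birc5 and Ndc80. Leaving out each array in turn gave 21 to 24 genes lower at 12.5 Gy, 23 to 27 at 15 Gy and 0 between the doses; 22 of the 24 and 23 of the 28 calls were kept without any single array. Within strains those ranges were 10 to 14 and 0 to 13 for C57L/J, 13 to 20 and 10 to 14 for C57BL/6J, and 11 to 14 and 9 to 15 for CBA/J, at 12.5 and 15 Gy. Without the 9 arrays with muscle transcripts, which leaves fewer samples, counts were 14 over strains at 12.5 Gy and 13 in C57L/J at 15 Gy. Fewer genes were called in C57BL/6J at both doses and in CBA/J at 15 Gy, each with a group of 1 array, and no counts are given. CBA/J at 12.5 Gy could only be fitted with the remaining arrays of other groups, again with fewer calls. With an adjusted p under 0.05 the strain counts were 3 and 0 for C57L/J, 3 and 1 for C57BL/6J, and 0 and 1 for CBA/J. C57L/J at 15 Gy gave 7 with all arrays in 1 fit, 2 with median-centring and 1 with either the mean or the most variable of the probe sets; C57L/J at 12.5 Gy gave 8 with the mean, and C57BL/6J at 15 Gy gave 9 with the most variable probe set. An unadjusted p under 0.01 for a difference in response was reached by 3 of the 41 genes for C57L/J and C57BL/6J and by 4 for C57L/J and CBA/J, against 1.15% and 1.14% of all genes, and by none after adjustment. For C57L/J against C57BL/6J shams the count was 3 with all arrays in 1 fit, 0 after adjustment and 2 to 5 without 1 array. Against CBA/J shams it was 4 with the intensity trend, an intensity floor of 32 or quantile normalization, 3 with median-centring, 0 after adjustment and 2 to 7 without 1 array. For C57BL/6J against CBA/J shams the most variable probe set gave 1. The replicate block gave 23 genes lower at 12.5 Gy and 24 at 15 Gy over strains, and 2 in each of the C57L/J sham comparisons. The cause of these shifts was not tested. Shares of all genes are not given in this paragraph for the within-strain and sham counts.

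Directions turned only with another probe set rule, which replaces the brightest probe set by a dimmer one. With the most variable probe set the differences at 12.5 Gy over strains were 0.014 for Cdca3, 0.438 for Cenpa, 0.271 for Nusap1 and 0.023 for Top2a, and at 15 Gy 0.367 for Cdca3 and 0.563 for Cenpa. Within strains they were 0.12 for Top2a (C57L/J, 12.5 Gy), 0.582 for Cdca3 (C57L/J, 15 Gy), 1.263, 1.211 and 0.045 for Cenpa, Nusap1 and Top2a (C57BL/6J, 12.5 Gy), 0.324, 1.314 and 0.18 for Cdc20, Nusap1 and Top2a (C57BL/6J, 15 Gy), and 0.186 and 0.774 for Cdca3 and Top2a (CBA/J, 15 Gy). With the mean of probe sets, Cdca3 gave 0.04 over strains and 0.194 in C57L/J at 15 Gy, and Nusap1 gave 0.127 in C57BL/6J at 15 Gy. Between 14.0% and 19.3% of values per array lay under an intensity of 32, where log2 differences are least precise, as for Ndc80, Birc5 and Kif20a.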
